A study of Mus musculus with 2 samples.

Results

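Of the 17043 EP300 peaks on chromosomes in the optimal list, 654 (3.84%, 95% Wilson interval 3.56 to 4.14%) had their summit inside an annotated exon and more than 1 kb from every annotated transcription start site (TSS). They were chosen by position alone, with the GENCODE vM21 annotation of GRCm38 (mm10). The summit lay in coding sequence in 157 peaks, in an untranslated region (UTR) in 257 and in a noncoding exon in 240. The measurements were ChIP-seq with an antibody against EP300 in whole liver of B6NCrl mouse embryos at 14.5 days, unmodified and untreated as far as the labels say, with both sexes pooled. Livers from several dissections had been ground and pooled, so every cell type of the organ contributed. There were 2 libraries, numbered as replicates 1 and 2, and they shared a biosample label, so their spread may be technical. The authors derived the optimal list from both libraries with a threshold on the irreproducible discovery rate (IDR). A peak in it need not have a summit in each library's own list.

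EP300 is a lysine acetyltransferase that transcription factors recruit to promoters and enhancers, and its ChIP-seq peaks away from promoters are widely used to map candidate enhancers. Most enhancers lie in introns or between genes, but an exon can carry regulatory sites too, and in coding sequence the same bases must then also encode protein. At this stage the fetal liver is the main site of red cell production, with hepatoblasts among the maturing blood cells. GATA1 in erythroid cells binds GATA sites, often in a complex with TAL1, which favours a composite of an E-box part and a GATA site.

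Sequences under strong peaks are shown because a GATA site close to the summit was the most common of the motifs searched, and the choice by position did not use it. The site was read on both strands as AGATAA or AGATAG or TGATAA or TGATAG within 100 bp of the summit. Each sequence is the 30 bases of GRCm38 around the site nearest to the summit, 5′ to 3′ on the strand that carries it. Capitals mark the GATA site and, where that site is part of a composite, the CTG of its E-box part. The windows of Ppm1d, P4ha1 and Golga7 held a composite at another GATA site, which is not printed. The first 6 lie under coding sequence peaks.
Ppm1d (chr11:85339619-85339648, plus strand): tatgcttcgggcAGATAAcacaagtgccat
Rnase6 (chr14:51130587-51130616, plus strand): gcCTGtgcacttAGATAAgattgtgtgagg
Smpdl3a (chr10:57807894-57807923, minus strand): gttgcataagggAGATAGcccactggaaca
P4ha1 (chr10:59348414-59348443, minus strand): gtaagtcaggccAGATAAcagacctagctc
Ppp1r15a (chr7:45524934-45524963, minus strand): cCTGcaaggggcTGATAAgaggcttgggga
Mindy4 (chr6:55263829-55263858, plus strand): cCTGtttgaaggAGATAAcagaaccaactc
The next 4 lie under peaks in untranslated regions.
Samd7 (chr3:30765809-30765838, minus strand): gCTGtggctaggAGATAAggtgctgtctct
Plxna2 (chr1:194815709-194815738, plus strand): CTGctgcacatgAGATAAaagcagaggagg
Scd1 (chr19:44395163-44395192, plus strand): catgtttgacaaTGATAAcgaggacgacaa
Gm10300 (chr4:132076919-132076948, plus strand): cCTGgccctgccTGATAAgcctgtgtgcct
The last 4 lie under peaks in noncoding exons.
Golga7 (chr8:23246163-23246192, minus strand): cccgtgtacagcTGATAActgtgtcctgtg
Gm10286 (chr8:94964939-94964968, minus strand): agtgcagacggtTGATAAcattttttcaga
Bcas2 (chr3:103176920-103176949, plus strand): ggagttttgctcTGATAAccttatcttatc
Adipor1 (chr1:134426471-134426500, minus strand): gtCTGgccaacaAGATAAgccttgcgtggg
Of the 6 coding examples, the sites of Ppm1d, Rnase6, Smpdl3a, Ppp1r15a and Mindy4 lay wholly within coding bases. That of P4ha1 lay outside them, beside the exon that held the summit.

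The strongest peak of coding sequence lay in Ppm1d, which encodes a phosphatase of the DNA damage response. Its signal, the value that the authors' peak caller gave each peak, was 325.7, in exon 5 (chr11:85339520-85339787), 13511 bp from the nearest TSS. It ranked 444 among the peaks of replicate 1 and 290 among those of replicate 2, so it was high in both. Rnase6, a secreted antimicrobial ribonuclease, followed at 269.5 in its last exon, with ranks of 757 and 552. Smpdl3a, a phosphodiesterase related to acid sphingomyelinase, had 266.7 in exon 6 with ranks of 693 and 685. P4ha1, a catalytic subunit of collagen prolyl hydroxylase, had 249.4 in exon 6, with ranks of 546 and 1201. Its ranks lay further apart than those of the peaks above.

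Next came 1700028K03Rik at 235.9 and Ppp1r15a, which directs a phosphatase to the translation factor eIF2α under stress, at 235.2. The latter ranked 1294 in replicate 1 and 589 in replicate 2. Acsm3, a mitochondrial medium-chain acyl-CoA synthetase, had 233.9 in exon 16, and Mindy4, a member of a deubiquitinase family, had 222.6 in exon 9. The last of the 10 strongest were Synj1, a phosphoinositide phosphatase, at 205.8 and Mgarp, a mitochondrial protein, at 205.4. All 10 peaks had a summit in both libraries within 100 bp and a GATA site. For 9 of them the exon peak was the strongest EP300 peak within the gene, and the exception was Synj1.

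In untranslated regions the strongest peak lay in Samd7, known for a role in photoreceptor gene silencing, at 391.2 in its last exon (chr3:30765704-30766011). It ranked 155 in replicate 1 and 124 in replicate 2. Ola1, an ATPase of the Obg family, had 383.7 with ranks of 100 and 233. Mbp, which encodes myelin basic protein, had 318.4 with ranks of 309 and 452. Plxna2, a semaphorin receptor, had 293.8 with ranks of 524 and 529. The position of a peak in an exon does not say which gene it acts on.

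Scd1, the desaturase that makes monounsaturated fatty acids, held 2 peaks in the 3′ UTR of its last exon, of 281.5 and 198.3, with summits 1822 bp apart. Both were stronger than the peak at its promoter, which had 25.1. Plekho2 had 254.3 and Kcnn1, a calcium-activated potassium channel, had 246.2. The peak in Gm10300 had 248.4 and lay 1596 bp from a TSS of Epb41, which encodes the red cell membrane protein 4.1. Homer2, a synaptic scaffold, had 239.6 and Mfsd4a, a transporter family member, had 237.7. All 10 had a summit in both libraries and a GATA site, and 9 lay in a last exon while Gm10300 has a single exon.

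The strongest exon peak of all was in a noncoding transcript of Golga7, a partner of the enzyme that palmitoylates Ras. Its signal was 453.6 (chr8:23246017-23246331), rank 49 in the optimal list, with ranks of 38 in replicate 1 and 56 in replicate 2. It lay 1009 bp from the nearest TSS and so only just qualified. Gm10286 followed at 367.5, Gm12292 at 363.2 and Gm44510 at 343.6. Bcas2, a splicing factor, had 342.2, Adipor1, an adiponectin receptor, had 333.7, Ypel4 had 331.5 and Gm13842 had 326.4. These 8 all ranked 433 or better in each library and had a GATA site. The next, F930017D23Rik at 313.2, had none, and neither did a peak of Cyth3 at 303.3. These last 2 were named after their values were seen.

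Exon peaks ranged widely in strength and were, as a class, about as strong as intronic peaks at the same distance limit. The lowest signal was 5.21, the median 41.1 and the highest 453.6, against a median of 42.8 and a highest of 544.1 over 7534 intronic peaks. The medians were 41.0 in coding sequence, 40.3 in untranslated regions and 43.9 in noncoding exons, and the promoter peaks had a median of 31.5. By definition 50% of all optimal peaks lay above the list's median, and 355 of 654 exon peaks (54.3%) did, against 54.1% of intronic peaks. A difference was called at an adjusted p under 0.05, with Benjamini-Hochberg adjustment over 9 comparisons of shares, and p-values are over peaks, not animals. The difference here was 0.14 percentage points (95% interval -3.85 to 4.09; two-sided Fisher's exact test, adjusted p = 0.967). By the same exact test it was 0.636 points for coding sequence (-7.25 to 8.30, adjusted p = 0.967), -1.22 for untranslated regions (-7.43 to 4.90, adjusted p = 0.954) and 1.27 for noncoding exons (-5.15 to 7.53, adjusted p = 0.954). The intervals leave room for differences of several points either way. In the authors' conservative list (it shares 520 of the exon peaks, 79.5%, against 78.4% of all optimal peaks) and in each library's own strongest peaks, the sign of the pooled difference turned, again without a call. With only the strongest peak per gene and class, exon peaks lay above the median less often than intronic ones (-9.89 points, exact test, adjusted p = 1.1e-05). That setting keeps 3521 of 7534 intronic peaks but 605 of 654 exon peaks, so it picks the strongest of more peaks per gene in introns.

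**Figure D1:**
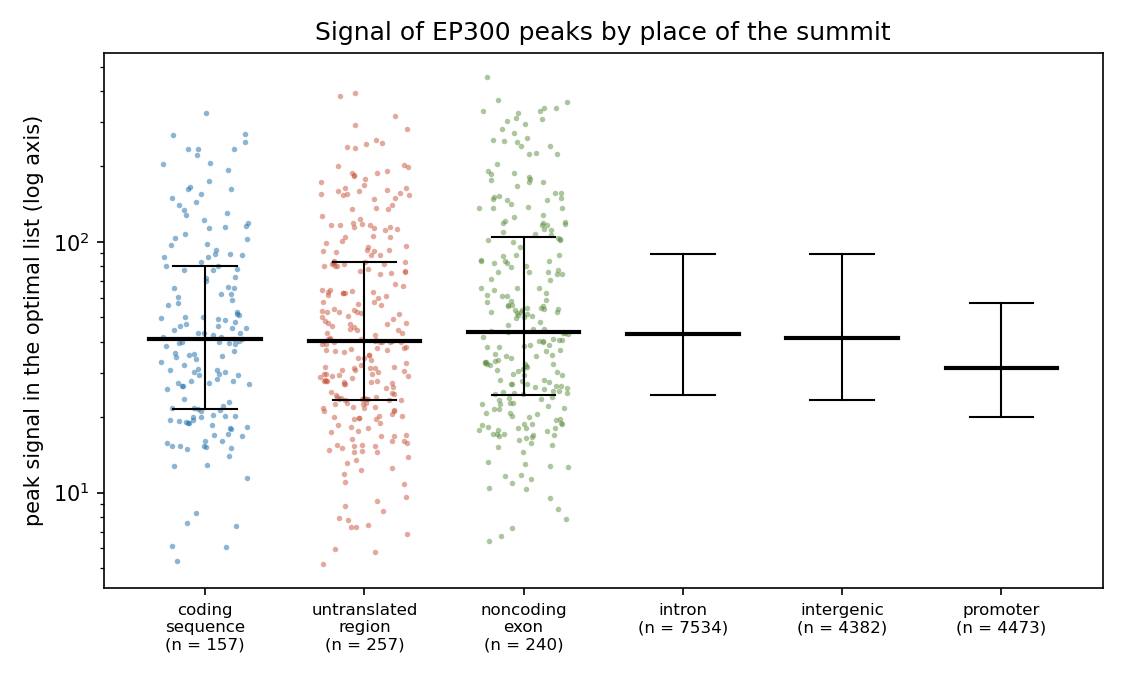
Signal of each exon peak (points, log axis, in the peak caller's units) by where the summit lies, with the median (thick bar) and the quartiles (thin bars) of each class; other classes are shown by their median and quartiles only. The 3 exon classes have medians of 41.0, 40.3 and 43.9, beside 42.8 for introns and 31.5 for promoters.

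Relative to the sequence available more than 1 kb from a TSS, exon peaks were about as dense as intronic ones. There were 7.82 exon peaks per Mb of exon (95% interval 7.23 to 8.44) and 7.45 intronic peaks per Mb of intron (7.28 to 7.62), with 3.17 per Mb between genes. Within exons the density was 6.25 per Mb in coding sequence (5.31 to 7.31), 8.17 in untranslated regions (7.20 to 9.23) and 8.85 in noncoding exons (7.77 to 10.04). The interval of coding sequence lay below that of noncoding exons. Position was the basis of the choice, so these densities are a description without a test, and the intervals cover counting error only. They were not matched for distance to a TSS. Exon summits lay a median of 3692 bp from the nearest TSS and intronic ones 7926 bp. Within exons the median was 4703 bp in coding sequence and 2462 bp in noncoding exons.

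Most exon peaks were found in both libraries. A summit of each library's own list lay within 100 bp in 565 of 654 (86.4%, 83.6 to 88.8%), against 84.3% of all optimal peaks and 89.0% of intronic peaks. The difference from introns was -2.61 points (-5.53 to -0.082; Fisher's exact test, adjusted p = 0.204) and was not called. By the exact test it was called in the conservative list (-3.33, adjusted p = 0.0214), with a TSS limit of 500 bp (-3.23, adjusted p = 0.0232) and with the strongest peak per gene and class (-5.47, adjusted p = 1.1e-05). A further 37 peaks had a summit in replicate 1 alone, 40 in replicate 2 alone and 12 in neither. The share depended on strength: it was 20 of 65 (30.8%) in the weakest 10% of the list, 44 of 66 (66.7%) in the next 10%, and every one of the exon peaks in the strongest 30%. Each library's list holds 300000 peaks, so a match alone is a weak requirement. Shares by strength were computed for exon peaks only. Among each library's own strongest peaks, cut to the length of the optimal list, 439 exon peaks (67.1%) were matched in both. For intronic peaks this share was 71.4%. Where both libraries had a summit, the median ratio of their ranks was 1.33, against 1.31 in introns. Of these 565 exon peaks, 475 (84.1%) had ranks within 2-fold of each other, against 84.8% of intronic peaks found in both libraries.

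**Figure D2:**
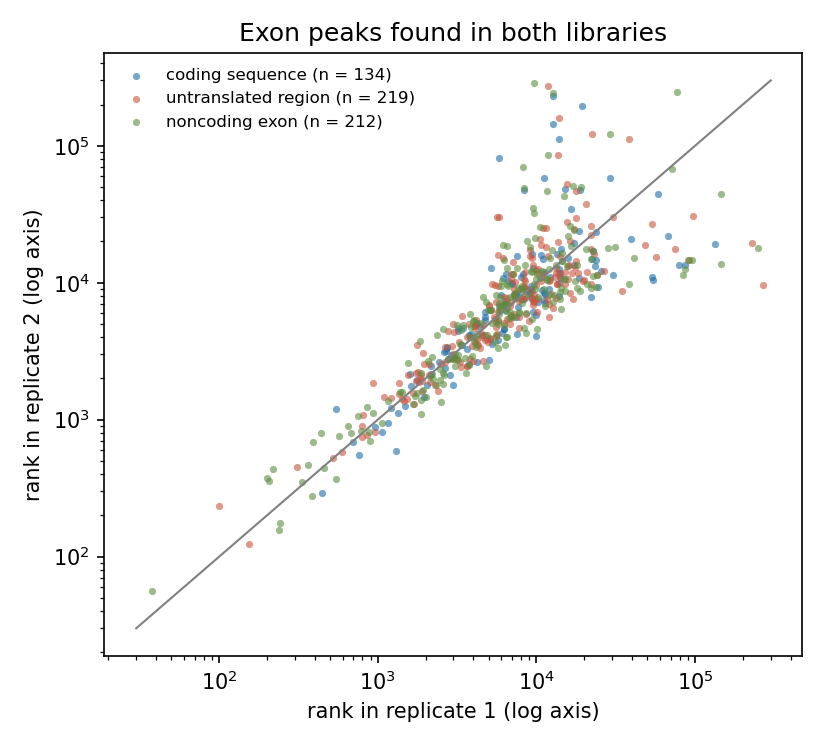
Rank of each of the 565 exon peaks found in both libraries, in replicate 1 (x axis) and replicate 2 (y axis), both on log axes with rank 1 the strongest; the line marks equal ranks. Strong peaks lie close to the line, and the spread grows toward the weak end. Of these peaks 84.1% lie within 2-fold, against 84.8% of intronic peaks found in both libraries.

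A GATA site was the most common of the 14 motifs searched in all exon classes. It lay within 100 bp of the summit in 549 of 654 exon peaks (83.9%, 80.9 to 86.6%), against 74.7% of all optimal peaks and 42.1% of promoter peaks. By class it was present in 133 of 157 coding peaks (84.7%), 215 of 257 in untranslated regions (83.7%) and 201 of 240 in noncoding exons (83.8%). Windows of the same length on the midpoint of every exon of the same class away from TSSs held a site in 25.3% of coding exons, 29.8% of untranslated regions and 32.0% of noncoding exons. The nearest site lay a median of 18.5 bp from the summit in exon peaks and 17.5 bp in intronic peaks. A window held 1 site in 260 exon peaks, 2 in 198 and 3 or more in 91. A match describes the letters only and does not show which protein was bound.

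Intronic peaks had a site in 6587 of 7534 cases (87.4%). The difference of exon from intron was -3.49 points (-6.58 to -0.761; Fisher's exact test, p = 0.0124, adjusted p = 0.112), which did not pass after adjustment over 9 comparisons. By class and the same exact test it was -2.72 for coding sequence (adjusted p = 0.594), -3.77 for untranslated regions (adjusted p = 0.212) and -3.68 for noncoding exons (adjusted p = 0.212). The call rested on the peak list, the TSS limit and the motif window. By the exact test the pooled difference passed with the strongest peaks of replicate 2 alone, without replicate 1 (-4.88, adjusted p = 0.0078), and with those of replicate 1 alone, without replicate 2 (-6.30, adjusted p = 1.4e-04). In the conservative list it passed as well (-4.77, exact test, adjusted p = 0.0052). So it did by the exact test with the strongest pooled peaks (-3.99, adjusted p = 0.0228) and a TSS limit of 500 bp (-4.80, adjusted p = 0.0018). A motif window of 50 bp gave -5.15 (exact test, adjusted p = 0.0255). Settings where it did not pass included a TSS limit of 2.5 kb, basic transcripts and peaks above the median signal. For coding sequence the sign differed between the libraries, at 0.746 with replicate 2 alone and -5.35 with replicate 1 alone.

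**Figure D3:**
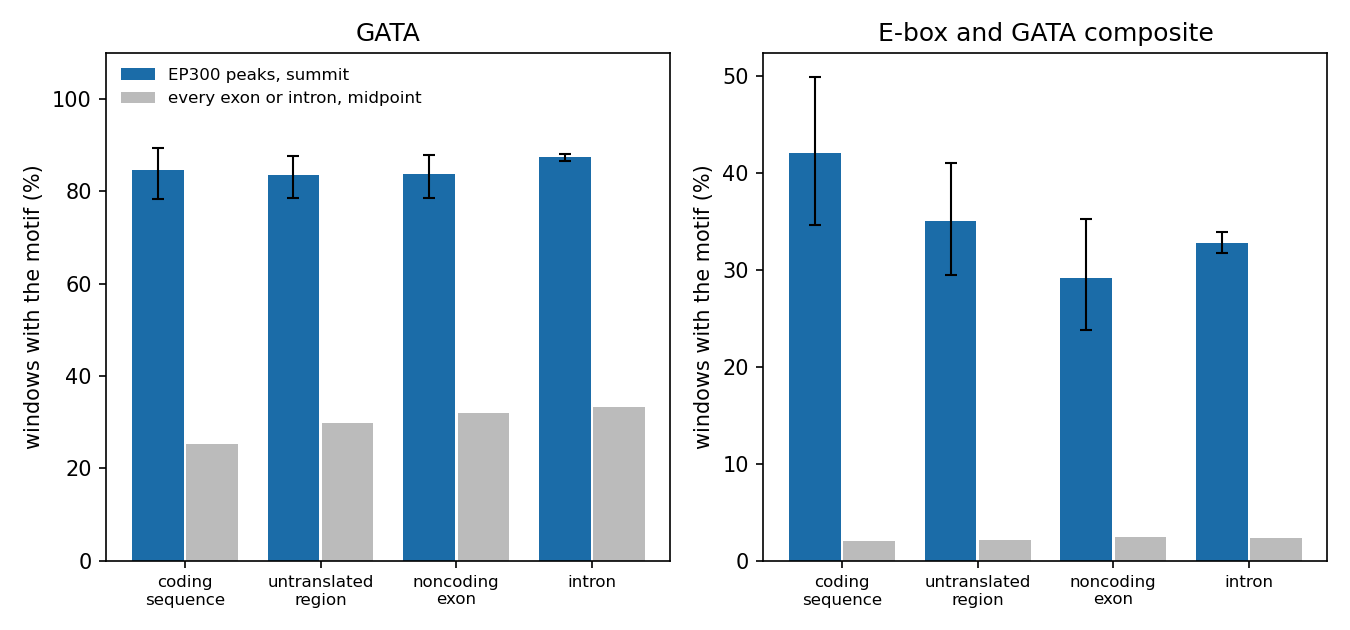
Share of windows of 100 bp on either side of the summit (blue, with 95% Wilson intervals) or of the midpoint of every exon or intron (grey) with a GATA site (left) or the composite of an E-box part and a GATA site (right), by class. Peaks hold a GATA site in 83.7 to 87.4% of windows, while the grey bars lie between 25.3 and 33.2%.

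The share with a GATA site moved with the distance to the nearest TSS. From 1 to 2.5 kb it was 165 of 219 exon peaks (75.3%, 69.2 to 80.6%) against 83.5% of intronic peaks. From 2.5 to 5 kb it was 86.5% against 87.3%, from 5 to 10 kb 87.2% against 87.4%, and beyond 10 kb 127 of 139 (91.4%, 85.5 to 95%) against 89.1%. Within the nearest range it was 31 of 46 in coding sequence (67.4%), 34 of 51 in untranslated regions (66.7%) and 100 of 122 in noncoding exons (82.0%). With only the peaks more than 2.5 kb from a TSS, the difference of exon from intron was 0.0227 points (exact test, adjusted p = 1). Sequence rich in CpG (an observed to expected ratio over 0.6) was also more common near a TSS, in 9.59% of exon peaks at 1 to 2.5 kb and 2.88% beyond 10 kb, and its part in the result was not tested. These ranges were chosen after the shares were seen.

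**Figure D4:**
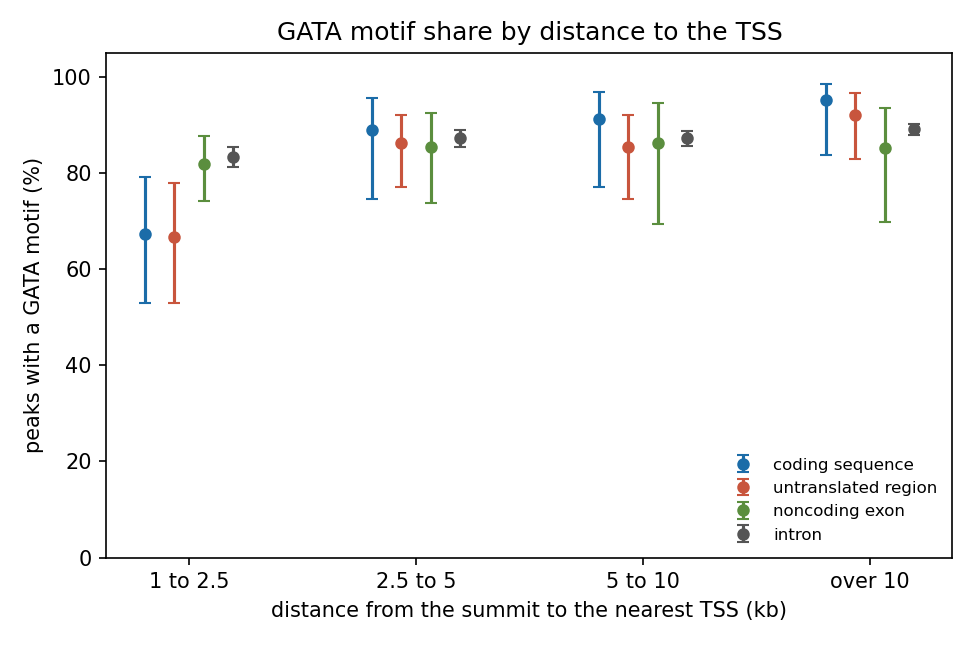
Share of peaks with a GATA site (points, with 95% Wilson intervals) by the distance of the summit from the nearest TSS in kb, for the 3 exon classes and introns. In the nearest range coding sequence (67.4%) and untranslated regions (66.7%) lie below introns (83.5%), and beyond 10 kb they lie at 95.1% and 92.2%.

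The share also moved with peak strength, in exons as in introns. Of the exon peaks in the strongest 20% of the optimal list, 138 of 148 (93.2%) had a GATA site, of those in the middle 231 of 258 (89.5%), and of those in the weakest 40% 180 of 248 (72.6%). The intronic shares were 95.4%, 91.9% and 77.1%. Promoter peaks were lower at each strength, with 77.5% in the strongest 20% and 28.9% in the weakest 40%.

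The composite of an E-box part and a GATA site, which TAL1 and GATA1 complexes favour, was present in 66 of 157 coding peaks (42.0%, 34.6 to 49.9%). It was present in 90 of 257 peaks in untranslated regions (35%), 70 of 240 in noncoding exons (29.2%) and 32.8% of intronic peaks. Every composite also counts as a GATA site. Of all coding exons of the genome away from TSSs, 2.00% held it, and so did 2.09% of untranslated regions and 2.48% of noncoding exons. The difference of coding sequence from intron was 9.25 points (1.74 to 17.1; Fisher's exact test, p = 0.0163, adjusted p = 0.22).

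That comparison was part of a panel of 14 motifs in 3 exon classes. Of the 42 pairs of motif and class, 0 differed from introns at an adjusted p under 0.05 by Fisher's exact test (0%), and 5 had an unadjusted p under that value. The smallest adjusted p was 0.22. Besides the composite, the 5 were the CTCF core, AGNGGGC, and the GC box, GGGCGG, in coding sequence, and the C/EBP motif, TTGCNNAA, in untranslated regions and in noncoding exons. The CTCF core was in 15.9% of coding peaks against 10.1% of intronic peaks and 9.84% of all coding exons. The GC box was in 9.55% of coding peaks against 5.10% of intronic peaks and 4.44% of all coding exons. The C/EBP motif was in 4.28% of peaks in untranslated regions and 12.5% of those in noncoding exons, either side of the 8.27% in introns.

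Motifs of HNF4 and HNF1, which act in hepatocytes, were rare in peaks as in all exons of the same classes. The HNF4 motif, CAAAGTCC, was in 0 of 157 coding peaks, which allows a share of up to 1.91% (3 counts of the total, the limit used for every count of 0), and in 1.17% of peaks in untranslated regions and 2.08% of those in noncoding exons. All exons of these classes held it in 1.02%, 1.01% and 0.843%. The HNF1 motif, GTTAATNAT, was in 1 coding peak and in 0 of the 257 and 240 others, which by 3 counts allows up to 1.17% and 1.25%. All exons of the 3 classes held the HNF1 motif in 0.398%, 0.537% and 0.665%. Counts this small cannot tell the peaks from these shares. Both strands were searched for every motif.

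In coding peaks most GATA sites lay in the protein-coding bases themselves. The choice put every summit of this class in coding sequence, and the nearest site lay a median of 20.5 bp from the summit. The share therefore follows in part from the choice and does not show a preference for coding bases. The 157 windows held 228 sites, of which 169 (74.1%) lay wholly within coding bases, 3 partly and 56 outside. Coding bases made up 70.1% of these windows. In windows on the midpoint of every coding exon, 57.8% of sites lay within coding bases, which made up 64.1% of them. Of the 133 coding peaks with a site, 112 had at least 1 within coding bases and 21 had sites only outside.

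The sites took up the reading frame unevenly. On the strand of the gene, a site that starts at codon position 1 would place a stop codon, TAA or TAG, in frame. Of the 169 coding sites 0 did so. By 3 counts of the total this allows a share of up to 1.78% (95% Wilson interval 0 to 2.22%). The genetic code keeps this count near 0 in any annotated coding sequence, so it says nothing particular to EP300 peaks. On the gene's strand 36 sites began at position 2 and 58 at position 3. Sites on the other strand were placed by their first base along the gene, which is the last base of the motif. Of these, 14 lay at position 1, 35 at position 2 and 26 at position 3. Over all coding exons the shares in this order were 0.0036%, 21.5%, 28.8%, 9.92%, 21.1% and 18.7%, and each lay within the 95% interval of the share in peaks. The strand of the gene carried 94 of the 169 sites (55.6%, 48.1 to 62.9%), against 50.3% over all coding exons.

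**Figure D5:**
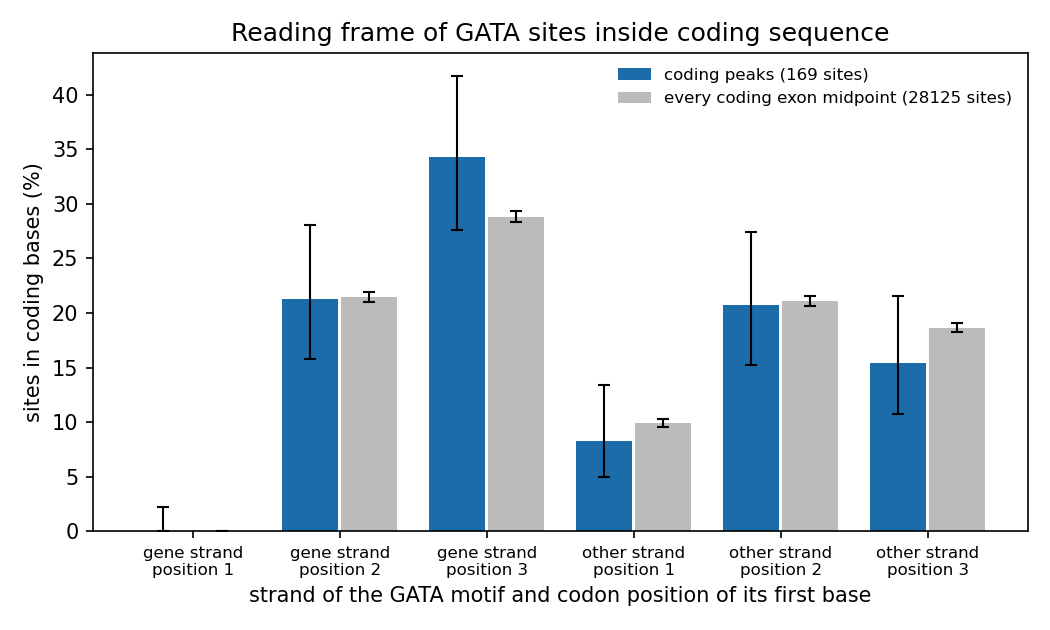
Share of GATA sites within coding bases by strand and codon position, with 95% Wilson intervals. Blue marks sites under the 157 coding peaks (169 sites) and grey those at the midpoint of every coding exon (28125 sites). The position is that of the site's first base read along the gene, which on the other strand is the motif's last base. Position 1 on the gene's strand, where a site would put a stop codon in frame, is empty in peaks. The other bars follow those of all coding exons within their intervals.

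The classes differed in the exons they occupied. Class and the 1 kb limit were part of the choice, and lengths and positions of all annotated exons were not set beside these values. They describe the members and do not show a preference of EP300 for such exons. Coding peaks lay in exons with a median length of 173 bp, 121 of 157 of them internal, and the peak reached beyond the exon: a median of 56.8% of its bases were exonic and 39 peaks lay wholly within exons. In 74 of them (47.1%) the summit was within 50 bp of an exon edge. Peaks in untranslated regions lay in exons with a median length of 2470 bp, 232 of 257 of them the last exon, and 227 peaks were wholly exonic. Of these 257, 251 were in a 3′ UTR and 6 in a 5′ UTR. Noncoding exons had a median of 2369 bp. Of the 240, 134 belonged to noncoding transcripts of protein-coding genes, 104 to noncoding genes (40 of them lincRNA, 29 of the type TEC, which awaits experimental support, and 22 antisense) and 2 to pseudogenes. Base composition followed the class, with a median GC content of 50.2% in coding, 47.8% in untranslated and 46.8% in noncoding windows, and 46.8% in introns.

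The 654 peaks lay in 598 genes. In 388 cases (59.3%) the exon peak was the strongest EP300 peak within the host gene, of which 220 were the only peak there and so the strongest by definition. A promoter peak was present in the host gene in 256 cases (39.1%), and in 129 of these the exon peak was the stronger. These counts were made for exon peaks only, so no share of intronic peaks stands beside them. As a class promoter peaks had a lower median signal than exon peaks, 31.5 against 41.1. The host was the gene of the nearest protein-coding TSS for 420 of the 548 peaks in protein-coding hosts. Another summit lay within 10 kb of 395 exon peaks (60.4%), against 60.2% of all optimal peaks. In 38 exon peaks (5.81%) a stronger summit lay within 500 bp, against 4.35% of intronic and 6.28% of all optimal peaks. These had a median signal of 10.6, and 11 of them were found in both libraries.

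Of the 598 genes, 549 held 1 exon peak, 43 held 2, 5 held 3 and 1700020I14Rik held 4. That noncoding gene carried 166.8, 75.9, 56.1 and 39.9 in its long last exon, all found in both libraries, and 2 of the summits were 200 bp apart. Pip4k2c, a phosphoinositide kinase, held 187.5, 17.1 and 11.4, the last with a summit 202 bp from the strongest. Htt, which encodes huntingtin, held 181.1 in a noncoding transcript and 116.5 and 5.21 in its last exon. Cyth3, an exchange factor for ARF proteins, held 303.3, 18.1 and 7.83 in 1 noncoding exon, none with a GATA site. Gm10286 held 367.5 and 26.3. The 3 peaks of Dnajb13 were weak, at 18, 9.30 and 8.42, and only 1 had a summit in a library's list.

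Slc4a1, which encodes band 3, the anion exchanger of the red cell membrane, held 3 coding peaks in exons 10, 9 and 7, of 14.1, 12.7 and 6.12. None had a GATA site, 2 were found in both libraries, and the promoter peak of the gene had 331.6. The coding peaks of this erythroid gene were thus among the weakest, beside a strong promoter peak and 14 peaks in all within the gene.

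Lists of genes of the cell types in this tissue were set beside these peaks without a test. Of all 21755 protein-coding genes, 500 (2.3%) held an exon peak. In the list of globins and red cell membrane proteins 7 of 34 did, led by the water channel Aqp1 at 80.2, with Slc43a1 at 25.5, Xpo7 at 18.9 and Tmcc2 at 17.8. Tmcc2 had 496.3 at its promoter. The other 3 were Slc4a1, Slc2a1 at 11 and Dmtn at 7.40. In heme and iron handling 3 of 20 did: Fech, which inserts the iron, at 109.2, the glycine carrier Slc25a38 at 38.6 and Alad, an early enzyme of heme synthesis, at 22.5. Of 20 erythroid transcription factors only Klf1 did, at 27.8 in exon 2, beside 187.2 at its promoter.

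Of 24 cell cycle genes 3 held one: Ccnd3, a G1 cyclin, at 225.2, Ccna2 at 50.1 and Aurka at 6.82. Of 20 coactivator genes Ncoa1 had 189.0 and Med12 had 27.3. Of 33 hepatocyte secreted proteins F2, which encodes prothrombin, had 118.8, and Alb, which encodes albumin, had 20 and 15.3 in exons 4 and 8. No exon peak lay in the 28 listed ribosomal protein genes, 21 hepatocyte transcription factors, 32 hepatocyte enzymes and transporters, 20 megakaryocyte genes or 24 macrophage genes. The lists are partial: Rps15a, a ribosomal protein gene outside its list, held 81.4 in its 3′ UTR, and Ccr2, a chemokine receptor of monocytes outside the macrophage list, held 185.4 and 20.3, both named after their values were seen. In lists of this size a few genes make each count, and genes differ in exon length, which was not adjusted for.

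Within 50 kb of a TSS, 7.37% of protein-coding genes had an exon peak. The count was 12 of 34 for globins and red cell membrane proteins, 5 of 20 for heme and iron, 4 of 20 for erythroid factors, 5 of 24 for the cell cycle and 3 of 20 for coactivators. It was 2 of 21 for hepatocyte factors, 3 of 33 for hepatocyte secreted proteins, 3 of 32 for hepatocyte enzymes, 4 of 24 for macrophage genes and 0 for ribosomal and megakaryocyte genes. A single peak can serve several genes here: the peak of 169.1 in Epha8 counted for C1qa, C1qb and C1qc. Erythroid genes reached through a neighbour's exon included Mafk by a peak of 159.4 in Tmem184a, Tfrc by 120.5 in Tnk2os, Cbfa2t3 by 111.7 in C230057M02Rik, Lmo2 by 88.5 in Gm13881 and Sptb by 65.9 in Plekhg3. These neighbours were named after their values were seen, and nearness does not show that a peak acts on a gene.

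The limit of 1 kb cut through a continuous range. The members nearest to it were 1001 bp (6030458C11Rik, signal 30.2) and 1009 bp (Golga7, 453.6) from a TSS, and the nearest exon summits left out lay at 998 bp (32.6) and 994 bp (9.86). In the 250 bp inside the limit there were 45 peaks with a median signal of 41.0, and in the 250 bp outside it 73 with a median of 36.1. RefSeq places a TSS within 1 kb of 23 of the 654.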

How the data were processed

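EP300 ChIP-seq of pooled embryonic liver was represented by peak lists on mm10: 1 for each of 2 libraries, 1 for both pooled, and the optimal and conservative IDR lists. Peak signal was deposited by the authors as the peak caller's value, on a scale of its own in each list. Which aligner and peak caller were run, and at which threshold, is not given in the sources used here. The lists give no read totals, so depth is unknown, and intervals cover counts of peaks only.

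The 12 optimal peaks on unplaced contigs were left out. Summits were placed on the GRCm38 sequence and GENCODE vM21, taking coding sequence before untranslated regions before noncoding exons; stop codons counted as coding. Shares were compared with intronic peaks by two-sided Fisher's exact tests (SciPy 1.17.1, Python 3.11.15) with Benjamini-Hochberg adjustment over 9 comparisons, and separately over 42 motif and class pairs, at 0.05. Intervals on shares are 95% Wilson intervals, and those on differences were combined from them by Newcombe's method. Counts of 0 are given with a limit of 3 counts of the total. The p-values are over peaks, not animals. The scripts were tested on simulated data. The alternatives were other peak lists, each library alone, TSS limits of 500 bp and 2.5 kb, basic transcripts, peaks with 50% or more of their bases in exons, class order, 1 peak per gene and a motif window of 50 bp. A further 2 were added after seeing the data.

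Genes were named by rule: the hosts of the 10 strongest coding, 10 strongest untranslated and 8 strongest noncoding exon peaks, the 8 genes with the most exon peaks, up to 4 members of each of 12 lists (302 genes), and the peaks nearest to the 1 kb limit. Other names complete a small count. A result that the rule took is not reported here. The members, lists, motifs and rules were chosen with earlier results of these data known.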

Additional observations from a re-analysis of the deposited data

How the results depend on the processing

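The alternatives gave 125 values, of which 77 kept their direction and side of the threshold or moved by less than their interval. The values are differences from introns in percentage points. The exon share of all peaks, 3.84%, was 3.90 to 3.98% with a single library, 4.17% among peaks above the median signal, 4.89% and 2.55% with TSS limits of 500 bp and 2.5 kb, 3.30% with basic transcripts and 3.48% with 50% or more of the peak in exons, and the last 4 settings change what counts as an exon peak. With a single library, the share above the median differed by -2.92 to -2.02 for all exons, -3.76 to -3.13 for coding, -4.35 to -2.77 for untranslated and -0.916 to -0.571 for noncoding exons, and the GATA share by -6.30 to -4.88, -5.35 to 0.746, -8.51 to -7.12 and -6.03 to -4.60. The GATA share passed there for all exons and untranslated regions in either library and for noncoding exons with replicate 2 alone. The share found in both libraries was not computed for a single library.

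In the conservative list the share above the median turned to -1.70, while GATA shares passed at -4.77 for all exons and -7.26 for untranslated regions, as did the share in both libraries at -3.33. With the pooled list the GATA share passed at -3.99, and the share above the median turned to 1.75 for untranslated and -0.357 for noncoding exons. Among peaks above the median it turned to -6.18 for coding and 0.674 for untranslated exons. At 500 bp it turned to -2.38 for all, -0.152 for coding and -1.29 for noncoding exons, and GATA passed at -4.80 for all, -5.99 for untranslated and -4.61 for noncoding exons, with the share in both libraries at -3.23. At 2.5 kb GATA turned to 0.0227 for all and 3.64 for coding exons, and the share above the median to 0.154 for untranslated regions. A motif window of 50 bp made GATA pass at -5.15. Leaving out peaks near RefSeq TSSs, chosen after seeing the data, turned the share above the median to -0.219 for all and -1.05 for coding exons. Leaving out peaks within 500 bp of a stronger one, also chosen then, changed no call. The causes were not tested.

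With the strongest peak per gene and class the share above the median was -9.89 for all, -11.65 for coding, -10.5 for untranslated and -8.01 for noncoding exons, GATA was -6.30, -6.07, -6.55 and -6.21, and the share in both libraries -5.47, all past the threshold. By construction this setting keeps the strongest of more peaks per gene in introns (7534 peaks become 3521) than in exons (654 become 605).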
